A study of Mus musculus with 4 samples.

Results

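Mitochondrial ribosomal protein genes were taken as the rows of the deposited table whose gene name is Mrpl or Mrps followed by a number and at most 1 letter. The rule found 74 of 11747 rows. Of these, 46 carry the symbol Mrpl, for proteins named after the large subunit, and 28 carry Mrps, for the small subunit. All 74 passed the filter on low values, a mean of at least 10 normalized read counts. The rows of Mrpl53 with Ccdc142 and of Mrps6 with Slc5a3 join a gene of the family to an unrelated gene and lie outside the rule. RNA was sequenced from 4 libraries of mouse embryonic stem cells differentiated toward motor neurons. The cells derive from the A172LoxP line, in which a transgene that encodes a transcription factor is under the control of doxycycline, an antibiotic used as a switch. In all libraries embryoid bodies, which are floating aggregates of the cells, received 0.5 µM retinoic acid and 1 µM of the Sonic hedgehog agonist purmorphamine for 2 days. The Dox+ group, 2 libraries numbered 2 and 8 in the table, was then kept with 2 µg/mL doxycycline for 2 to 3 days, and the Dox- group, 2 libraries numbered 1 and 7, with vehicle for the same time. All cells come from 1 engineered line, and the Dox- cells carry the transgene too. Doxycycline belongs to the tetracyclines, which are known to inhibit the mitochondrial ribosome itself, and no library had the drug without the transgene, so the drug and the induced factor cannot be told apart.

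The mitochondrial ribosome is a separate ribosome inside the mitochondrial matrix that makes the few proteins encoded by mitochondrial DNA, all of them subunits of the respiratory chain and of ATP synthase. Its RNAs are transcribed from mitochondrial DNA, whereas all of its proteins are encoded in the nucleus, made in the cytosol and imported. In mammals the ribosome has less RNA and more protein than its bacterial relative, so that beside descendants of bacterial ribosomal proteins it holds many proteins found only in mitochondria, and neurons are among the cells that depend most on the respiratory chain it supplies.

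The reads behind the normalized counts were estimated at 22434755 and 30235763 in Dox+ libraries 2 and 8, and at 29905679 and 25190896 in Dox- libraries 1 and 7. The mitochondrial ribosomal genes were well covered, with at least 292 estimated reads in every library. The labels do not say whether the libraries within a group were separate cultures. A p-value here therefore reflects the spread of these libraries only, and that spread may be technical. Neuronal marker genes differed between the groups. Of 14 listed pan-neuronal genes 12 were called lower in Dox+, and their summed normalized count was 84344 and 67895 in Dox+ libraries, against 172849 and 153520 in Dox- libraries. Of 8 listed motor neuron genes 7 were called lower, and of all rows 1.79% were. The summed count of the 8 was 6004 and 5229 in Dox+ and 14440 and 13667 in Dox-. The remaining gene, Lhx3, went the other way, with 1819 and 1546 in Dox+ and 1352 and 974 in Dox-. Its groups did not overlap, and its log2 difference of 0.55 ± 0.17 (SE) did not pass (limma, adjusted p = 0.155). All 15 cell cycle genes had differences above 0 and none was called, with sums of 89184 and 94731 in Dox+ and 73949 and 83099 in Dox-. None of the 5 listed pluripotency or 7 listed endoderm markers was called. The endoderm sum was 154676 and 371058 in Dox+ libraries 2 and 8 and 208283 and 409663 in Dox- libraries 1 and 7, so it differed more within each group than between groups. The part of these differences in the values of the mitochondrial ribosomal genes was not tested. In bulk RNA, fewer cells of a type and less RNA per cell cannot be told apart.

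Messenger RNA of the mitochondrial ribosome stood at nearly the same level with and without doxycycline. None of the 74 genes passed the test (limma, Benjamini-Hochberg adjusted over all rows at 0.05), where 2.37% of all rows did, 0.579% higher and 1.79% lower. At an unadjusted p under 0.05 in limma there were 3 of 74 genes, Mrpl23, Mrps9 and Mrps33, against 21.1% of all rows. The median log2 difference, Dox+ minus Dox- on the scale of log2(normalized count + 1), was 0.05 for the 74 genes and 0.00 for all rows. The differences of the genes ran from -0.23 to 0.33, with quartiles of -0.02 and 0.10, while the quartiles of all rows were -0.12 and 0.13. In 72 of 74 genes (97.3%) the difference was smaller than 0.25 in size, as it was in 76.0% of all rows. The absence of calls depends on how the libraries are treated. In a fit that pairs them by column number (1 with 2, 7 with 8), a pairing that the labels do not give, 7 of the 74 genes were called (limma, adjusted p between 0.000341 and 0.0401), against 29.9% of all rows. They were Mrpl23, Mrps33, Mrps31, Mrps9, Mrpl17 and Mrpl45, higher, and Mrps26, lower, and that fit has 1 residual degree of freedom. In it limma took the spread wholly from the trend shared across genes, and none from the gene's own libraries.

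A p that misses the threshold does not show that levels were equal, so the intervals are given as well. The 95% limma interval of the difference, taken gene by gene without adjustment, lay within a 1.5-fold change either way for all 74 genes, against 74.7% of all rows. It lay within a 1.25-fold change for 48 of 74 genes, against 34.8% of all rows. The genes also varied little between libraries of a group. Their median residual SD was 0.075 on the log2 scale, against 0.091 over all rows, and their median standard error was 0.089, against 0.098. The estimated reads of the 74 genes nevertheless differed between libraries of a group by more than counting error. Per degree of freedom, their chi-square came to 4.07 for Dox+ libraries 2 and 8 and 3.65 for Dox- libraries 1 and 7. Over all rows this measure was larger, at 28.3 in Dox+ and 26.4 in Dox-. For the same relative spread it grows with the read count, and all rows include far deeper genes. The cytosolic ribosomal protein genes, for example, had a median level of 23886 normalized counts, against 1038 in the 74 genes. The measure therefore does not compare the relative spread of the 74 genes with that of all rows.

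**Figure D1:**
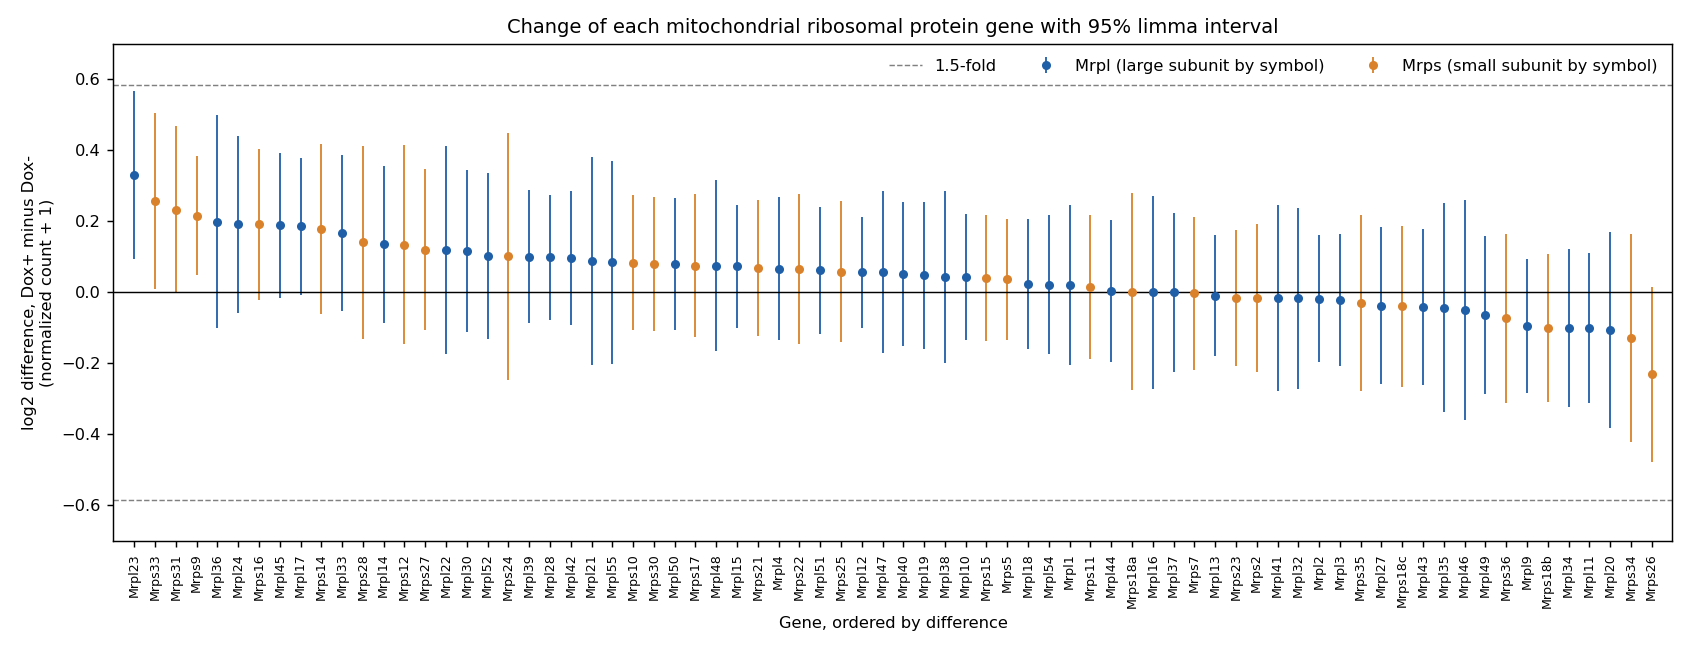
Log2 difference, Dox+ minus Dox-, of each of the 74 genes on the vertical axis, ordered from the highest, Mrpl23 at 0.33, to the lowest, Mrps26 at -0.23; points are estimates from 2 libraries per group and bars the 95% limma intervals. Dashed lines mark 1.5-fold, and every bar lies between them.

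Within this narrow range more genes stood on the higher side. The difference was above 0 in 51 of 74 genes (68.9%), against 50.6% of all rows. Both Dox+ libraries lay above both Dox- libraries in 28 of 74 genes, against 26.7% of all rows, and below both in 4, against 26.5% of all rows. The 4 were Mrpl9, Mrps18b, Mrpl34 and Mrps26. The groups thus did not overlap in 32 of 74 genes, against 53.2% of all rows. Summed over the 74 genes, the normalized count was 86651 and 86182 in Dox+ libraries 2 and 8, against 84947 and 82184 in Dox- libraries 1 and 7. These sums were 0.328% and 0.323% of the library totals in Dox+ and 0.318% and 0.304% in Dox-. Both Dox+ sums were higher, but the lower Dox+ sum stood closer to the higher Dox- sum than the Dox- sums stood to each other.

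The Mrpl and Mrps genes kept step with each other. The symbols do not match the subunits fully, since Mrps18a, Mrps30 and Mrps36, described below, count here as Mrps. The sum over Mrpl genes divided by the sum over Mrps genes was 1.90 and 1.82 in Dox+ libraries 2 and 8, and 1.89 and 1.85 in Dox- libraries 1 and 7, so the ratios of the groups overlapped. The median difference was 0.05 for the 46 Mrpl genes, of which 32 lay above 0, and 0.06 for the 28 Mrps genes, of which 19 lay above 0. Neither set held a called gene. The 42 genes listed as having a bacterial counterpart and the 27 listed as specific to mitochondria each had a median of 0.05. Of these, 29 and 19 genes lay above 0. The mitochondria list holds Mrps18a and Mrps18b, described below as relatives of a bacterial protein, while Mrps18c is in the bacterial list. The lists thus do not fully separate genes by bacterial origin, and some genes of the family, such as Mrpl47, are in neither.

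The highest difference belonged to Mrpl23, a protein at the mouth of the exit tunnel, through which the new chain leaves the large subunit. Mrpl23 had 1114 and 1224 normalized counts in Dox+ libraries 2 and 8, against 883 and 976 in Dox- libraries 1 and 7. Both Dox+ values lay above both Dox- values, by a log2 difference of 0.33 ± 0.10 (SE; 95% interval 0.10 to 0.57), which did not pass (limma, adjusted p = 0.137). Mrps33, a small-subunit protein specific to mitochondria, followed with 1524 and 1315 in Dox+, against 1231 and 1139 in Dox-. Its difference was 0.26 ± 0.10 (limma, adjusted p = 0.224). Mrps31, also specific to mitochondria, had 825 and 749 in Dox+ and 685 and 653 in Dox-, a difference of 0.23 ± 0.10 (limma, adjusted p = 0.241). In both genes the groups did not overlap.

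Mrps9, which belongs to the head of the small subunit, showed the tightest libraries of this set. It had 1865 and 1851 normalized counts in Dox+ and 1589 and 1608 in Dox-. The gap between groups was far wider than the gap within either, yet with 2 libraries per group and the spread that limma shares across genes the difference of 0.22 ± 0.07 did not pass (limma, adjusted p = 0.157). Mrpl36, the gene with the fewest normalized counts in the family, had 344 and 391 in Dox+ and 322 and 317 in Dox-. Its Dox+ libraries were both higher, by 0.20 ± 0.12 (limma, adjusted p = 0.409).

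On the lower side the largest difference was that of Mrps26, a small-subunit protein specific to mitochondria. It had 804 and 926 normalized counts in Dox+, against 1038 and 988 in Dox-. Both Dox+ values lay below both Dox- values, with a difference of -0.23 ± 0.10 and a 95% interval of -0.48 to 0.02 (limma, adjusted p = 0.263). Mrps34, another protein of the small subunit, had 579 and 704 in Dox+ and 702 and 694 in Dox-. Library 2 alone lay lower. The difference was -0.13 ± 0.12, and 0.013 without that library. Mrpl20, a large-subunit protein with a bacterial counterpart, had 1116 and 1092 in Dox+ and 1313 and 1076 in Dox-. Its groups overlapped, with a difference of -0.11 ± 0.11, and without library 1 it was 0.037. Mrpl34 had 795 and 741 in Dox+ and 846 and 799 in Dox-, groups that came close without overlapping, and a difference of -0.10 ± 0.09 (limma, adjusted p = 0.578).

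By place in the ribosome, the 5 listed proteins of the exit tunnel had the highest median of the groups described, 0.19. All 5 differences lay above 0 and none was called. The list was chosen with earlier results of these data known and may not hold every protein of the tunnel. The summed normalized count of the 5 genes was 6287 and 6137 in Dox+, against 5569 and 5220 in Dox-. Beside Mrpl23, described above, Mrpl17 had 1508 and 1519 in Dox+ and 1384 and 1278 in Dox-, a difference of 0.19 ± 0.08 (limma, adjusted p = 0.251). Mrpl45, which tethers the ribosome to the inner membrane next to the exit, had 1592 and 1581 in Dox+ and 1466 and 1321 in Dox-, a difference of 0.19 ± 0.08 (limma, adjusted p = 0.265). Both genes had groups that did not overlap. Mrpl24 had 1056 and 972 in Dox+ and 946 and 832 in Dox-, a difference of 0.19 ± 0.10 (limma, adjusted p = 0.341). Mrpl22 had 1017 and 842 in Dox+ and 891 and 814 in Dox-, and here the groups overlapped, with a difference of 0.12 ± 0.12 that was -0.017 without library 2.

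The stalk, the flexible arm that recruits translation factors, is built on Mrpl10 and Mrpl11 and carries copies of Mrpl12. Mrpl12 had the most normalized counts of the family in every library, with no correction for length, at 2655 and 2636 normalized counts in Dox+ and 2531 and 2554 in Dox-. Its groups lay apart by a small step, 0.06 ± 0.06 (limma, adjusted p = 0.653). Mrpl10 had 1503 and 1536 in Dox+ and 1498 and 1452 in Dox-, a difference of 0.04 ± 0.07. Mrpl11 had 1725 and 1613 in Dox+ and 1886 and 1699 in Dox-, with overlapping groups and a difference of -0.10 ± 0.09. The stalk genes thus lay close to 0, on both sides of it.

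**Figure D2:**
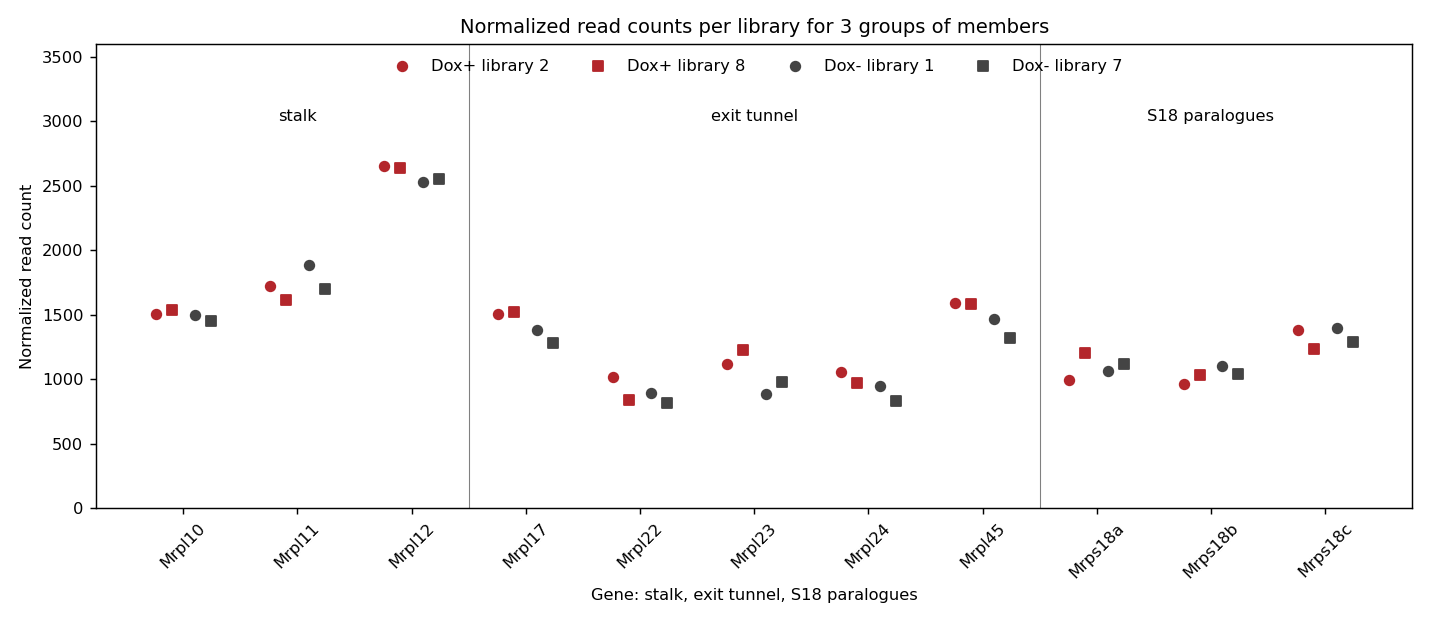
Normalized read count per library on a linear axis from 0 for the stalk, exit tunnel and S18 genes; red points are Dox+ libraries 2 and 8 and dark points Dox- libraries 1 and 7. In Mrpl17, Mrpl23, Mrpl24 and Mrpl45 both Dox+ points lie above both Dox- points, and the Mrpl12 points lie between 2531 and 2655.

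Other functional centres lay near 0. The 5 listed genes around the peptidyl transferase centre, where the peptide bond is made, had a median of -0.02, and the 5 of the central protuberance, which faces the small subunit, had one of 0.04. In neither did any gene have groups that stood apart. Of the 4 genes on the path of the messenger and the decoding centre, Mrps12, whose bacterial counterpart guards the accuracy of decoding, had 459 and 521 in Dox+ and 458 and 433 in Dox-. The groups met almost exactly, at 458.6 in Dox+ library 2 and 458.4 in Dox- library 1, and the difference was 0.13 ± 0.11 (limma, adjusted p = 0.550). Mrpl32, whose protein must be trimmed by a protease of the inner membrane before it joins the ribosome, had 678 and 607 in Dox+ and 626 and 673 in Dox-. Its groups overlapped fully, with a difference of -0.02 ± 0.10.

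Mammals have 3 relatives of the bacterial protein S18, encoded by Mrps18a, Mrps18b and Mrps18c, of which Mrps18a is found in the large subunit in spite of its name. Mrps18a had 993 and 1202 normalized counts in Dox+ and 1063 and 1120 in Dox-, a difference of 0.00 ± 0.11. Mrps18b had 964 and 1032 in Dox+ and 1099 and 1039 in Dox-, where both Dox+ values were lower, by -0.10 ± 0.08. Mrps18c had 1379 and 1236 in Dox+ and 1396 and 1288 in Dox-, with overlapping groups and a difference of -0.04 ± 0.09. No paralogue passed the test, and none took a clearly larger share in either group. Mrps30 also belongs to the large subunit. It had 1200 and 1214 in Dox+ and 1116 and 1167 in Dox-, a difference of 0.08 ± 0.08. Mrps36 is now known as a subunit of the 2-oxoglutarate dehydrogenase complex of the citric acid cycle. It had 888 and 1017 in Dox+ and 1011 and 988 in Dox-, a difference of -0.07 ± 0.10, and its groups overlapped. The 11 listed genes in which variants cause oxidative phosphorylation deficiency in humans had a median of 0.00, with 6 above 0 and none called.

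Levels can be compared between genes only per length. Divided by the GENCODE length of the matched transcripts on GRCm38, the mean level over all 4 libraries ran from 144 normalized counts per kb for Mrps25 to 3673 per kb for Mrpl52, a ratio of 25.6, with a median of 773. Divided instead by the longest matched coding sequence, it ran from 632 per kb for Mrps31 to 4302 per kb for Mrpl12, a ratio of 6.81. The transcripts counted by the authors may be shorter than those of GENCODE, where Mrpl17 is 7300 bases long. The name of the deposited values holds the letters cds, which may point to counting over coding sequence alone. The sources used here do not state which length fits the counting. By either length Mrpl52, Mrps21, Mrpl42 and Mrpl12 were among the highest 5, and in terms of transcript length Mrps18c was the fifth. Mrpl52 had 3593 and 4016 normalized counts per kb of transcript in Dox+ and 3726 and 3355 in Dox-, and Mrps21 had 2585 and 2681 in Dox+ and 2478 and 2542 in Dox-. In every library Mrpl52 stood above Mrps21, and Mrps21 above Mrpl42. Mrpl42 followed with 2430 and 2481 per kb in Dox+ and 2383 and 2210 in Dox-, so its range reached into that of Mrps21.

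The lowest genes per kb of transcript were Mrps25, Mrpl19 and Mrpl17, and none of these was among the lowest 3 per kb of coding sequence. By coding sequence they ranked 40, 65 and 16 from the top among the 74 genes. Mrps25, a small-subunit protein specific to mitochondria, had 144 and 149 normalized counts per kb of transcript in Dox+ and 141 and 141 in Dox-. Mrpl19 had 176 and 186 in Dox+ and 171 and 178 in Dox-. Differences between groups were thus tiny beside those between genes. Over the 4 libraries the coefficient of variation of a gene's normalized count had a median of 5.54%, from 0.639% for Mrpl13 to 14.3% for Mrpl23. Mrpl13, the steadiest gene, had 1605 and 1585 normalized counts in Dox+ and 1601 and 1608 in Dox-.

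**Figure D3:**
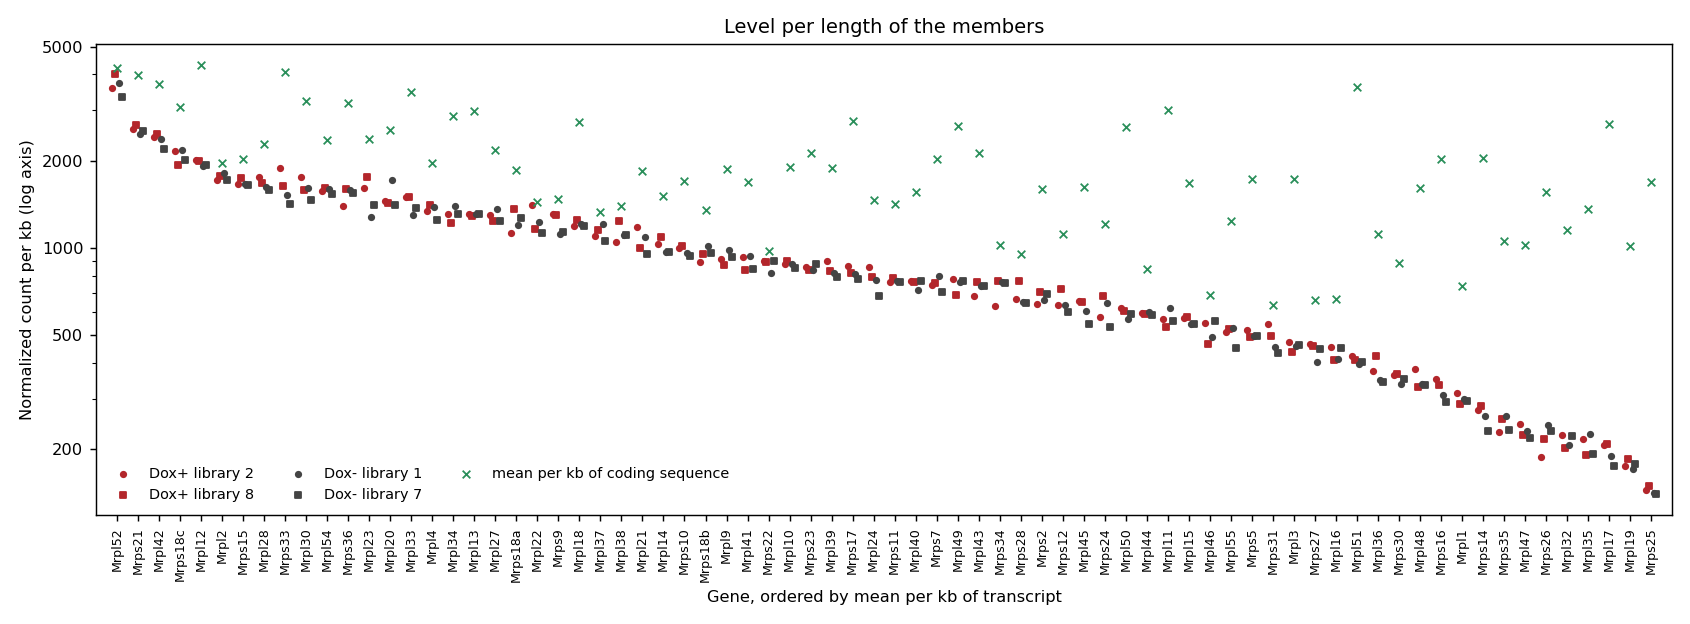
Normalized count per kb of transcript on a log axis for the 74 genes, ordered by their mean, with red points for Dox+ libraries 2 and 8, dark points for Dox- libraries 1 and 7 and crosses for the mean per kb of coding sequence. The points of a gene lie close together while the genes spread from 144 to 3673 per kb of transcript, and the crosses spread less, from 632 to 4302.

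Libraries 7 and 8 were also set against libraries 1 and 2, in a model that keeps treatment as a term and has 1 residual degree of freedom. Here too limma took the spread wholly from the trend shared across genes. Of the 74 genes 1 was called, Mrpl21, against 14.5% of all rows, 6.21% of them lower. Mrpl21, a large-subunit protein with a bacterial counterpart, had 1083 and 1134 normalized counts in libraries 7 and 8, against 1246 and 1346 in libraries 1 and 2, a log2 difference of -0.22 ± 0.08 (limma, adjusted p = 0.0305). Mrpl35 and Mrpl22 differed in the same direction without passing, by -0.21 (limma, adjusted p = 0.109) and -0.20 (limma, adjusted p = 0.0977). The highest value was that of Mrps18a, 0.18 (limma, adjusted p = 0.133). The median of the 74 genes was -0.02, and that of all rows was -0.01.

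The genes lie on 17 chromosomes, and many sit beside another gene. In the GENCODE annotation of GRCm38, 32 of 74 (43.2%) start within 1000 bases of a coding gene on the opposite strand, so that the pair diverges or overlaps at its starts. Among the other listed rows matched to 1 coding gene this held for 1856 of 11359 (16.3%), and no test was made. The median distance between starts was 140.5 bases. Of the 30 partners outside the family 23 were found in the table by their annotation symbol, and none was called. Their median difference was 0.01, with 14 above and 9 below 0. Twnk, the partner of Mrpl43, stands in the table under its older symbol Peo1 and is not among the 23. Its difference was -0.06 ± 0.09 (limma, adjusted p = 0.744). The 32 genes with a partner had a median of 0.02 and the 42 without one a median of 0.07. In 30 of the 74 genes an exon overlaps one of another gene, in 21 of them a coding gene. The sources used here do not say whether reads were counted by strand, so reads in the shared stretches cannot be told apart. The length of these stretches was not measured.

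Several partners have mitochondrial roles of their own. Mrps11 and Mrpl46 form a pair within the family, with starts 412 bases apart in that annotation and exons that overlap. These starts are the outermost ends of the annotated genes. The RefSeq starts used for the promoter windows below differ from them and lie closer together. Mrps11 had 806 and 830 normalized counts in Dox+ and 813 and 805 in Dox-, and Mrpl46 had 625 and 527 in Dox+ and 559 and 631 in Dox-. Neither gene had groups that stood apart, and their differences were 0.02 ± 0.08 and -0.05 ± 0.13. Mrps12 starts 172 bases from Sars2, the mitochondrial seryl-tRNA synthetase gene. The difference was 0.13 ± 0.11 for Mrps12 and -0.16 ± 0.11 for Sars2 (limma, adjusted p = 0.432), opposite in sign and each with a 95% interval that includes 0. Mrpl36 starts 29 bases from Ndufs6, which encodes a subunit of respiratory complex I. Exons of the pair overlap, so reads in the shared stretch cannot be told apart. The differences of Mrpl36 and Ndufs6 were 0.20 ± 0.12 and 0.19 ± 0.08 (limma, adjusted p = 0.262). Mrps27 and Ptcd2, a mitochondrial RNA-binding protein gene, start 81 bases apart and had differences of 0.12 ± 0.09 and 0.16 ± 0.09. Mrpl49 starts 59 bases from Fau, which encodes a cytosolic ribosomal protein. Mrpl49 had -0.06 ± 0.09, and Fau had 0.22 ± 0.05 (limma, adjusted p = 0.103).

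**Figure D4:**
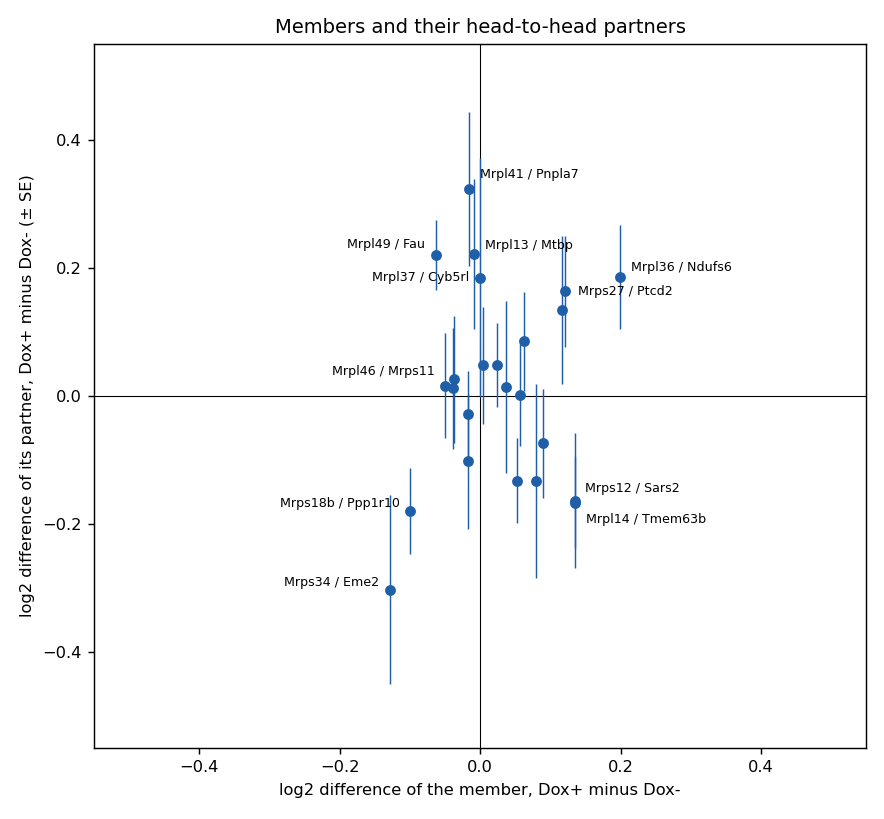
Log2 difference, Dox+ minus Dox-, of each gene whose head-to-head partner was found by its annotation symbol. The gene is on the horizontal axis and its partner, with its standard error, on the vertical axis. Points lie on both sides of 0 on either axis, and Mrps12 is opposite in sign to Sars2. Mrpl36 and Ndufs6, both near 0.2, have exons that overlap, so reads in the shared stretch cannot be told apart.

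Promoter sequences, 250 bases before to 50 after the start, were found in the RefSeq table for 65 of the 74 genes. They were searched on both strands for letters of motifs bound by factors known to drive nuclear genes for mitochondria. CCGGAAG, of the ETS family to which GABP belongs, was present in 23 of 65 promoters (35.4%), in 20.3% of the 8094 listed genes with a promoter and in 9.93% of all 27025. GCATGCG, of NRF1, was present in 8 (12.3%), against 7.57% of listed and 4.01% of all. GATGGCG, of YY1, was also present in 8 (12.3%), against 7.68% and 4.04%. At least 1 of the 3 was found in 33 of 65 (50.8%), against 31.5% and 16.2%. Mrpl23 and Mrps9 held none of these letters, and Mrps33 and Mrps26, which differed in opposite directions, both held CCGGAAG. A match describes the letters and is not shown to be a site, and no test was made.

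Both Mrpl17 and Mrpl22, of the exit tunnel, held the ETS and the NRF1 letters, and they are shown for that. Mrpl33 and Mrps18b held both as well, with differences of 0.17 ± 0.09 and -0.10 ± 0.08. Mrps12 is shown for its neighbour Sars2, and Mrps11 for the start region it shares with Mrpl46, whose window overlaps it by 141 bases. The sequences are from RefSeq on GRCm38.p6, read 5′ to 3′ along the gene's strand, with capitals for the motif letters on either strand. Mrpl17 lies at chr7:105811038-105811337 on the minus strand, Mrpl22 at chr11:58171414-58171713 on the plus strand, Mrps12 at chr7:28741772-28742071 on the minus strand and Mrps11 at chr7:78782881-78783180 on the plus strand. In Mrpl17 and Mrpl22 GCATGCG occurs on both strands at the same place, so that 8 letters are in capitals there.
Mrpl17: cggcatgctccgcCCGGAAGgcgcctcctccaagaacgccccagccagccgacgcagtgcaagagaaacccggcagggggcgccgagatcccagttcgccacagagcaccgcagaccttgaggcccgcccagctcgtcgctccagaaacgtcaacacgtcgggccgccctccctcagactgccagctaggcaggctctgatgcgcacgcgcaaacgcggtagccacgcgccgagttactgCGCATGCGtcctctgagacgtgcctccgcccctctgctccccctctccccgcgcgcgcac
Mrpl22: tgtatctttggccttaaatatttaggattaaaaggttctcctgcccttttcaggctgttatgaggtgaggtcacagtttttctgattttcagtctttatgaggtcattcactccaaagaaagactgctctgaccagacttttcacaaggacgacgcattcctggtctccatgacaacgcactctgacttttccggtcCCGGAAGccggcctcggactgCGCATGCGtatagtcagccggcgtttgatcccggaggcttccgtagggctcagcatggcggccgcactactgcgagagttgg
Mrps12: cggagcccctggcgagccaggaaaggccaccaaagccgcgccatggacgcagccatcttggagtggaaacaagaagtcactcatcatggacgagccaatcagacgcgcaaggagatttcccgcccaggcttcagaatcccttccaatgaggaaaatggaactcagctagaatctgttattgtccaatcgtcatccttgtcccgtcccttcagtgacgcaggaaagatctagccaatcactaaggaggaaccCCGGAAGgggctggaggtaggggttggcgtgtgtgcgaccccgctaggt
Mrps11: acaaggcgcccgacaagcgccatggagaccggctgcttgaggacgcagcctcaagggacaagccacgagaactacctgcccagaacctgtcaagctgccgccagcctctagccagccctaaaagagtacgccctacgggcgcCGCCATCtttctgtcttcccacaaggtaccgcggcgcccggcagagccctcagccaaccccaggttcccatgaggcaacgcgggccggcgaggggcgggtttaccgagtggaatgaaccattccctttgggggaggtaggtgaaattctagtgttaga
In Mrps11 the capitals are the YY1 letters as they read on the minus strand. In Mrps12 the ETS letters lie next to the start, in Mrpl22 a little before it, and in Mrpl17 near the far end of the window.

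Proteins that work with the mitochondrial ribosome were described from lists of the same pathway. Of 7 listed ribosomal proteins whose symbol is not Mrpl or Mrps with a number, none was called and 6 had differences above 0. Their median was 0.09. Chchd1, a small-subunit protein, had 1705 and 1599 normalized counts in Dox+ and 1436 and 1387 in Dox-, a difference of 0.23 ± 0.08 (limma, adjusted p = 0.177). Its groups stood well apart. The other listed members named by the smallest p were Mrp63 (0.15 ± 0.10), Aurkaip1 (0.13 ± 0.10) and Ptcd3 (0.09 ± 0.09). Of 10 translation factors none was called, with 6 above 0 and a median of 0.04. Guf1, the mitochondrial relative of the bacterial elongation factor LepA, was at 0.19 ± 0.07 (limma, adjusted p = 0.224). Mtfmt, which formylates the initiator tRNA, was at -0.19 ± 0.11 (limma, adjusted p = 0.392). Mrrf, which recycles the ribosome, was at 0.14 ± 0.10 and the release factor gene Mtrf1l at 0.16 ± 0.12.

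Of 22 listed assembly and rRNA maturation genes none was called, 11 lay above and 11 below 0, and the median was 0.00. The GTPase gene Gtpbp10, which acts late in assembly of the large subunit, had 970 and 961 normalized counts in Dox+ and 769 and 817 in Dox-, a difference of 0.28 ± 0.08 (limma, adjusted p = 0.141). Ybey, an endoribonuclease gene of small-subunit assembly, had 154 and 146 in Dox+ and 164 and 203 in Dox-, a difference of -0.28 ± 0.18 (limma, adjusted p = 0.429). In both genes the groups did not overlap, in opposite directions. Mterfd1 and Mtg1, also named by their p, were each at 0.17. Of 19 mitochondrial aminoacyl-tRNA synthetases none was called and 14 lay above 0, with a median of 0.10. Pars2, for proline, had 307 and 315 in Dox+ and 240 and 242 in Dox-, a difference of 0.37 ± 0.12 (limma, adjusted p = 0.173). Fars2, for phenylalanine, was at 0.28 ± 0.12 and Nars2, for asparagine, at 0.24 ± 0.12. The lowest was Lars2, for leucine, named after its value was seen, at -0.54 ± 0.40 with overlapping groups. It had 2894 and 2139 in Dox+ libraries 2 and 8 and 5627 and 2326 in Dox- libraries 1 and 7. Library 1 alone stood higher, and library 7 lay between the Dox+ values.

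Beyond translation, the 30 listed genes of protein import and chaperones had a median of 0.05, with 22 above 0 and none called. Timm8a1, a small chaperone of the space between the membranes, had 832 and 796 normalized counts in Dox+ and 579 and 691 in Dox-, a difference of 0.36 ± 0.11 (limma, adjusted p = 0.157). Tomm7 was at 0.18 ± 0.07, Dnajc19 at 0.25 ± 0.11 and the protease gene Spg7 at -0.17 ± 0.07. The 12 genes of abundant outer membrane and matrix proteins, used as markers of mitochondrial mass, had a median of -0.04, with 7 below 0 and none called. They lay on both sides of 0. The adenine nucleotide carrier gene Slc25a5 had 7246 and 6786 in Dox+ and 6439 and 6103 in Dox-, a difference of 0.16 ± 0.07 (limma, adjusted p = 0.242). The outer membrane channel gene Vdac3 was at -0.17 ± 0.08. The citrate synthase gene Cs had 8503 and 8090 in Dox+ and 9251 and 8935 in Dox-, a difference of -0.13 ± 0.06 (limma, adjusted p = 0.281). The 82 listed nuclear genes with symbols of the respiratory chain and ATP synthase had a median of 0.02 with 1 called higher. These symbols also take in genes that do not encode subunits, such as the assembly factor gene Ndufaf4, and Cox4nb. No gene encoded in mitochondrial DNA was among the listed rows. The 74 listed cytosolic ribosomal protein genes, also taken by symbol, all had differences above 0, with a median of 0.24, 5 called higher and groups that did not overlap in all 74. Their summed normalized count was 1916200 and 1903830 in Dox+, against 1596150 and 1630090 in Dox-. The difference between both families of ribosomal protein genes was not tested.

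**Figure D5:**
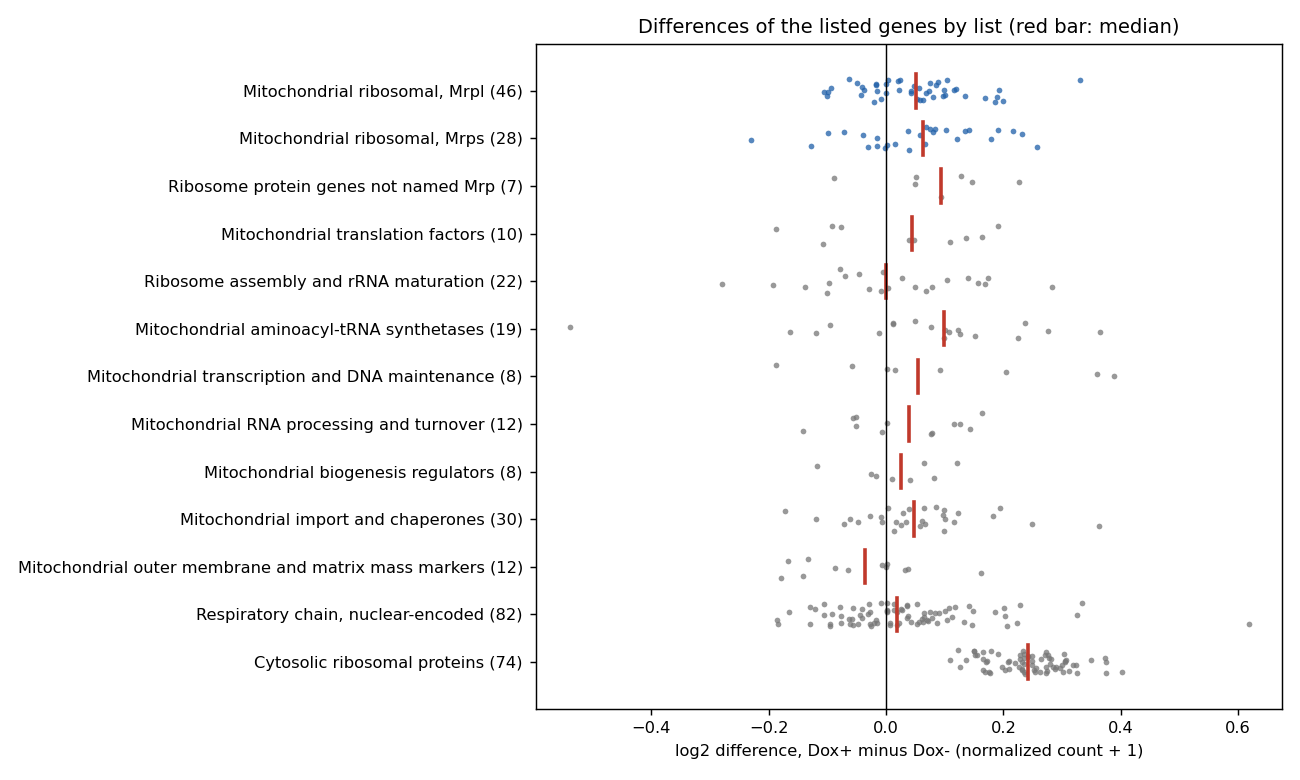
Log2 difference, Dox+ minus Dox-, of each listed gene by list, with a red bar at each median and the number of listed genes in parentheses. The mitochondrial ribosomal genes, in blue, centre on 0.05 and 0.06, and the cytosolic ribosomal proteins, at the bottom, on 0.24.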

How the data were processed

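Illumina TruSeq libraries were sequenced on a HiSeq instrument (the labels' protocols). CASAVA, TopHat2, HTSeq, DESeq and build mm9 are named in the submitters' processing notes, with no version, role or order. The values deposited by the authors are a signal, a read count per gene normalized by library. All values of a column (100%) come within 0.1 of whole multiples of 1 step, taken as the worth of 1 read, and reads were estimated from it. Because the reads are estimates, count models were not used. Columns were given a group by the initials in their names. The column numbers differ from the labels' replicate numbers. The induced gene is not reported here.

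Values were analysed as log2(normalized count + 1) in 11747 rows (the filter, a mean of at least 10, removed none) with limma 3.58.1 in R 4.3.3, two-sided, with an intensity trend and Benjamini-Hochberg adjustment at 0.05, in a fit with 2 residual and 3.83 prior degrees of freedom. For 2 against 2 libraries the smallest exact permutation p is 0.333. The fit was tested on simulated data. The files' build differs from GRCm38, so GENCODE vM21 and RefSeq tables served for lengths, neighbours and promoters only, and 7 of the 74 genes' rows join several accessions. Their coding length is the longest among those matched. Other software was Python 3.11.15 with scipy 1.17.1, pandas 2.3.3, matplotlib 3.10.9 and numpy 2.4.6.

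The gene set, lists, roles and tests were chosen with earlier results of these data known. Genes named were those past the test, the 5 highest and 5 lowest differences, the 5 highest and 3 lowest levels per length, the 3 largest differences either way between libraries 7 and 8 and libraries 1 and 2, the stalk, S18 and misnamed genes, Mrps12, Mrpl32 and Mrpl45, and up to 4 of each mitochondrial list by smallest p. Partner genes, Mrpl9, Mrpl13, Mrpl24, Mrps11, Mrpl46, Mrps27, Mrpl33, Mrpl49, Lars2, Lhx3 and Nrf1 were chosen after their values were seen. Alternatives were other pseudocounts, filters, scalings and variance settings, each library left out, and a block by column number.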

Additional observations from a re-analysis of the deposited data

How the results depend on the processing

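No mitochondrial ribosomal gene was called with pseudocounts of 0.5 or 5, without the filter or with one at 50, with quantile or TMM scaling, no trend, robust empirical Bayes or any library left out. Over those fits that leave out 1 library the median difference of the 74 genes ran from 0.0389 to 0.0531 (0.0389 without library 7), and with quantile scaling it was 0.0678, where the median of all rows moved to 0.02. With a replicate block by column number (1 with 2, 7 with 8), 7 of the 74 were called, 6 higher and 1 lower, 3 of the large and 4 of the small subunit. They were Mrpl23, Mrps33, Mrps9, Mrps31, Mrpl17, Mrpl45 and, lower, Mrps26. That fit has 1 residual degree of freedom, calls 3508 of all rows, against 278 without the block, and pairs columns whose numbers are not those of the labels. Its prior degrees of freedom were infinite, so its standard errors rest on the shared intensity trend alone. The deviations of libraries 1 and 2 correlated at 0.630. Under the block 1 ribosomal protein not named Mrpl or Mrps, 1 translation factor, 1 assembly gene and 3 synthetases were called. So were 2 transcription and maintenance genes, 4 import genes and 5 mass markers. Without library 7, 1 synthetase was called, in a range of 0 to 1 over libraries left out. Calls over all rows ran from 44 to 494 when 1 library was left out. The ratio of the highest to the lowest level per length was 6.81 with coding length, an alternative chosen after seeing the data. When 1 library was left out the difference spanned -0.27 to 0.013 for Mrps34, -0.25 to 0.037 for Mrpl20, -0.12 to 0.041 for Mrps18c, -0.14 to 0.14 for Mrps18a, -0.034 to 0.21 for Mrpl21, -0.16 to 0.072 for Mrpl35, -0.017 to 0.26 for Mrpl22, -0.17 to 0.025 for Mrps36 and -0.10 to 0.063 for Mrpl32. Of the 74 genes 38 kept their sign under all 13 alternatives and 36 did not. The filters, the variance settings and the block cannot change the difference of any of these genes. The sign could therefore move only with the pseudocounts, the scalings and the libraries left out. The causes of these shifts were not tested.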

Other observations

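Genes that maintain and read mitochondrial DNA were described as values. Of 8 listed genes none was called, with 6 above 0 and a median log2 difference, Dox+ minus Dox-, of 0.05. Ssbp1, the mitochondrial single-stranded DNA-binding protein gene, had 2183 and 2165 normalized counts in Dox+ and 1951 and 1825 in Dox-, a difference of 0.20 ± 0.07 (limma, adjusted p = 0.189). Top1mt, the mitochondrial topoisomerase gene, had 507 and 603 in Dox+ and 391 and 456 in Dox-, a difference of 0.39 ± 0.14 (limma, adjusted p = 0.191). Polrmt, the mitochondrial RNA polymerase gene, had 1135 and 1140 in Dox+ and 1339 and 1253 in Dox-, a difference of -0.19 ± 0.08 (limma, adjusted p = 0.249). In all 3 the groups stood apart, on the lower side in Polrmt. Polg2, an accessory subunit of the DNA polymerase, was at 0.36 ± 0.19. Of 12 listed RNA processing genes none was called, 7 lay above 0 and the median was 0.04. Ptcd2 was at 0.16 ± 0.09, Hsd17b10 at 0.13 ± 0.07, Supv3l1 at 0.12 ± 0.08 and Elac2 at -0.14 ± 0.08.

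Among regulators of mitochondrial biogenesis, of 8 listed genes none was called, with 5 above 0 and a median of 0.03. Gabpb2, which encodes a partner subunit of GABP, had 1093 and 1171 normalized counts in Dox+ and 1146 and 1314 in Dox-, a difference of -0.12 ± 0.10 (limma, adjusted p = 0.545), with overlapping groups. Gabpa, the DNA-binding subunit of GABP, had 1468 and 1477 normalized counts in Dox+ and 1371 and 1445 in Dox-, a difference of 0.06 ± 0.07. Yy1 had 2302 and 2431 in Dox+ and 2177 and 2296 in Dox-, a difference of 0.08 ± 0.07. Mycn, of the Myc family, was at 0.12 ± 0.19, with overlapping groups. Nrf1 had 1786 and 1726 in Dox+ and 1811 and 1745 in Dox-, a difference of -0.02 ± 0.07, and its groups overlapped.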
